A study of Homo sapiens with 12 samples.

Results

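The 2 arrays labelled as the invasion subline of a Detroit head and neck cancer line were set against the 4 arrays of the Fadu line, 2 of its parent cells and 2 of its own invasion subline. They make up 6 of the 12 samples of the series and were chosen by their titles. Fadu is an established line from a squamous carcinoma of the pharynx. The sources used here do not give which Detroit line was grown. The study asked which molecules go with invasion in head and neck cancer cells, and both sublines were derived by selecting invasive cells on Matrigel, a basement membrane preparation. The parent cells carry the Matrigel protocol in their labels too, and no gene was edited and no drug is named for any group. Total RNA was isolated with Trizol from every sample, biotin-labelled and read on 1 Affymetrix array. The other samples, 2 arrays each of Detroit parent cells and of OECM1 parent and subline cells, entered the fits only for the spread, and the Detroit parent also served as a scale. The labels do not say that duplicates were separate cultures, so p-values rest on a spread among these samples that may be technical.

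Squamous epithelium renews itself from a basal layer of dividing cells that carry keratin 14. As the cells move up they leave the cell cycle and assemble desmosomes and a cornified envelope, a protein shell cross-linked by transglutaminase, while kallikrein-related peptidases cut the links between surface cells. Squamous carcinoma lines keep parts of this programme in culture, and most of them divide rapidly, so that genes of S phase and mitosis are strongly expressed.

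Values are log2 RMA values, in which a difference of 1 is a 2-fold change. In each gene the mean of the 4 Fadu arrays is the reference, a positive difference means a higher value in the Detroit-labelled subline, and values of Fadu arrays are given in the order subline replicates 1 and 2, then parent replicates 1 and 2. A gene was called when its limma p, adjusted by the Benjamini-Hochberg method over 8992 genes, was under 0.05. It was termed separated when both Detroit-labelled arrays lay above, or both below, all 4 Fadu arrays and the mean difference was at least 1. Array medians lay between 4.92 and 5.06. A probe set for 18S ribosomal RNA stood at 12.62 on Fadu subline replicate 1 and between 4.87 and 5.73 on the other 5 arrays compared. The ACTB 3' minus 5' probe set difference, a measure of RNA integrity, was -0.28 and 0.80 on Detroit-labelled replicates 1 and 2 and lay between -0.23 and 0.55 on the Fadu arrays.

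Labels and profiles were checked before the comparisons. Over the 8992 genes, which are not independent replicates, Detroit-labelled replicate 1 stood at a root mean square log2 difference of 0.486 from the Fadu mean and replicate 2 at 0.766. Fadu arrays stood between 0.357 and 0.431 from the mean of the other 3, and the Detroit parent arrays stood 0.820 and 0.749 from the Fadu mean. From the Detroit parent mean, Detroit-labelled replicate 1 lay 0.774 away and replicate 2 lay 0.996 away. Replicate 1 was therefore nearer to Fadu than to its labelled parent, as was replicate 2, yet neither was as near to Fadu as the Fadu arrays were to each other. OECM1 arrays, of another line, fell on either side. Subline replicate 2 stood 0.779 from Fadu and 0.835 from the Detroit parent, and parent replicate 1 stood 0.801 and 0.913. Subline replicate 1 (0.885 and 0.880) and parent replicate 2 (0.816 and 0.774) were nearer to the Detroit parent. Being nearer to Fadu thus did not set Detroit-labelled replicate 2 apart from another line. The 2 Detroit-labelled arrays were also the least alike duplicates, with 364 genes at least 4-fold apart against 6 to 177 genes in the other 5 groups. Levels and list medians are therefore given for each Detroit-labelled array. All 10 epithelial and squamous markers on the array lay above the dim limit (a log2 value of 4.52, the 40th percentile of all values) on all 6 arrays. Below it on all 6 lay 4 of 10 fibroblast, 5 of 8 endothelial and 4 of 8 leukocyte markers. Above it on all 6 lay 3 fibroblast, 3 endothelial and 2 leukocyte markers.

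Genes that mark the Detroit parent were mostly not found at its level in the Detroit-labelled subline. Between the Detroit parent and Fadu, 562 genes were called (6.25% of those tested), 254 higher (2.82%) and 308 lower (3.43%), and 20.1% had an unadjusted p under 0.05. Leaving out 1 Detroit parent or Fadu array gave 163 (without Detroit parent replicate 1) to 365 called genes (without Fadu parent replicate 2). Of the called genes, the 20 most above and the 20 most below Fadu were taken, a choice in which the Detroit-labelled subline arrays had no part. Of the 20 high genes, replicate 1 was nearer to the Fadu mean in 20 and replicate 2 in 17. Of the 20 low genes, they were nearer to Fadu in 17 and 16. Fewer lay inside the range of the Fadu arrays. In replicate 1 these were 15 of the high and 8 of the low genes, and in replicate 2 they were 8 and 5. The Fadu arrays are shared by both comparisons, so these counts are a description. Genes chosen as extreme in the Detroit parent can lie nearer to Fadu on arrays of any other line, and OECM1 arrays were not counted.

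**Figure D1:**
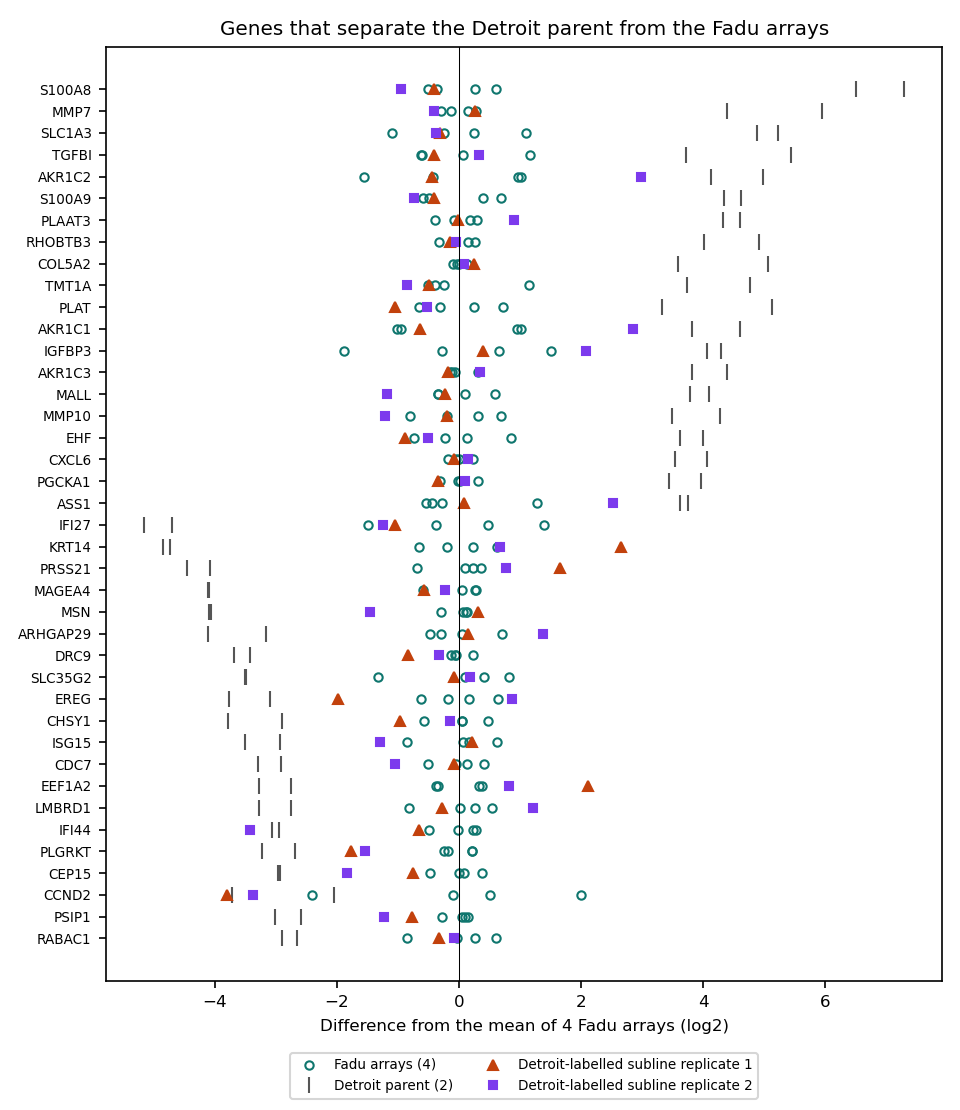
Log2 difference from the mean of the 4 Fadu arrays (x axis) for the 20 genes most above and the 20 most below Fadu in the Detroit parent (y axis). Grey ticks are Detroit parent arrays, open circles Fadu arrays, the triangle and square Detroit-labelled subline replicates 1 and 2. Most triangles and squares lie nearer to the Fadu mean than to the Detroit parent, though many lie outside the Fadu circles. CCND2 and PLGRKT lie on the Detroit parent side in both.

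S100A8, a subunit of calprotectin, stood at 10.62 and 11.40 in the Detroit parent. On the Detroit-labelled arrays it stood at 3.70 and 3.15, and on the Fadu arrays at 3.60, 3.74, 4.37 and 4.71. MMP7, a matrix metalloproteinase, stood at 10.001 and 8.43 in the Detroit parent, at 4.30 and 3.63 on the Detroit-labelled arrays and between 3.74 and 4.32 on the Fadu arrays. In both genes the Detroit-labelled arrays were below the dim limit and far from the Detroit parent. Among low genes, the cancer-testis antigen MAGEA4 stood at 4.03 and 4.02 in the Detroit parent. It reached 7.55 and 7.90 on the Detroit-labelled arrays, inside the Fadu range of 7.55 to 8.41.

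A few of these genes did not follow. The aldo-keto reductases AKR1C1 and AKR1C2, steroid and carbonyl reductases whose near-identical sequences can share probe signal, were at Fadu levels in replicate 1 only. AKR1C1 stood at 5.80 in replicate 1, at 9.29 in replicate 2, between 5.43 and 7.45 in Fadu and at 11.04 and 10.26 in the Detroit parent. ASS1, the argininosuccinate synthase, stood at 7.31 and 9.76 on the Detroit-labelled arrays, between 6.68 and 8.50 in Fadu and at 10.85 and 10.98 in the Detroit parent. In replicate 2, both genes lay above all Fadu arrays. Among the low genes, CCND2 and PLGRKT were those in which both Detroit-labelled arrays were nearer to the Detroit parent.

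Against the 4 Fadu arrays, the mean of both Detroit-labelled arrays differed by a called amount in 1 gene of 8992 (0.0111%), KLK5, which was higher. An unadjusted p under 0.05 was reached by 634 genes (7.05%). Without replicate 1 the count of called genes was 433, without Fadu parent replicate 2 it was 8, and without replicate 2 it was 1 (TGM1). Leaving out either Fadu subline array, either Detroit parent array or any of the 4 OECM1 arrays gave 0 called genes. Separated genes numbered 223 (2.48% of the genes tested). Of these, 33 were higher (0.367%) and 190 were lower (2.11%). At any size of difference the directions were nearly even, with 797 genes in which both arrays lay above all Fadu arrays (8.86%) and 774 in which both lay below (8.61%). Counting genes in which each Detroit-labelled array differed 2-fold from the Fadu mean, 7 were higher in both (0.0778%) and 71 lower in both (0.79%). Opposite directions at that limit were found in 36 genes lower in replicate 1 and higher in replicate 2 (0.4%), and in 2 genes, KRT13 and SGK1, the other way (0.0222%).

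**Figure D2:**
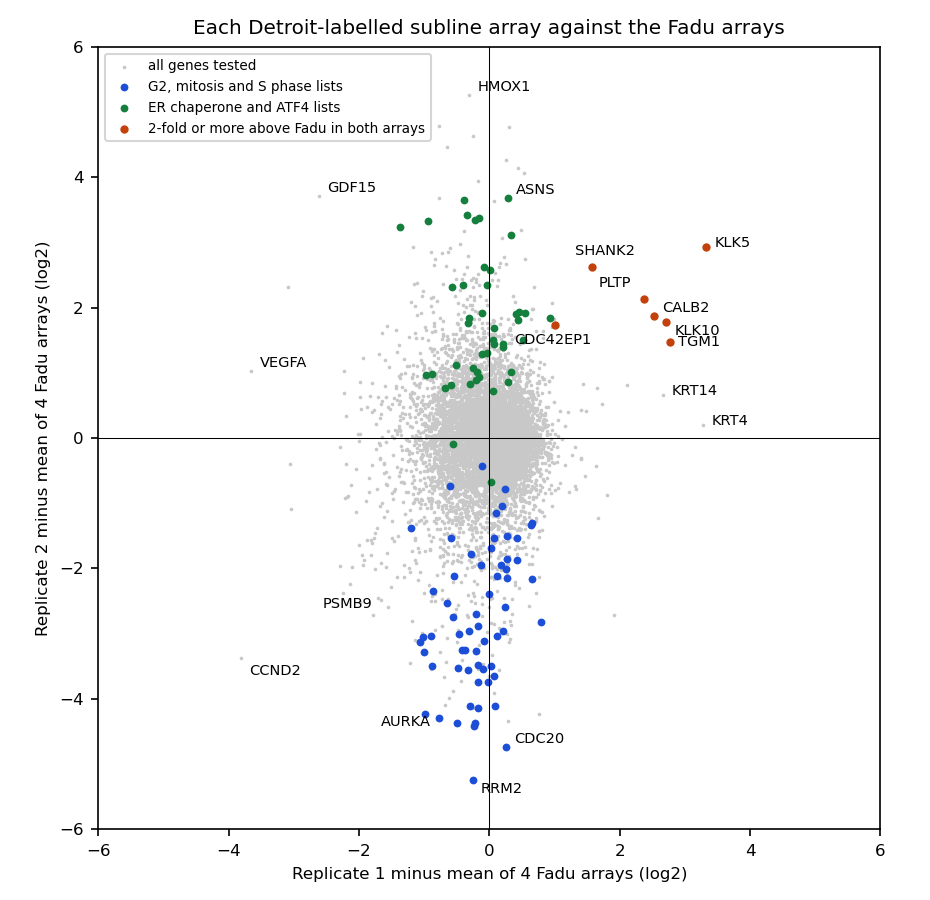
Difference of Detroit-labelled replicate 1 (x axis) and replicate 2 (y axis) from the mean of the 4 Fadu arrays, in log2 units, for 8992 genes. Orange points are the 7 genes at least 2-fold higher in both arrays. Blue points are cell cycle lists and green points are ER chaperone and ATF4 lists, which spread along the axis of replicate 2 and lie mostly within 1 of 0 in replicate 1.

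The 7 genes higher in both arrays were KLK5, KLK10, TGM1, PLTP, CALB2, SHANK2 and CDC42EP1. KLK5 encodes a trypsin-like kallikrein peptidase that starts the shedding cascade of the epidermis. It stood at 9.36 and 8.97 on the Detroit-labelled arrays and at 5.18, 5.03, 6.23 and 7.71 on the Fadu arrays. The groups did not overlap, and the highest Fadu array was parent replicate 2. KLK5 was 8.76-fold higher, a log2 difference of 3.13 ± 0.35 (SE, n = 2 against 4 arrays) with an adjusted p of 0.0197 in limma. The Detroit parent was low, at 4.23 and 4.51. The call was lost when the spread came only from the 6 arrays compared (adjusted p = 0.653) or with array weights (adjusted p = 0.284). It was also lost when 1 array was left out, either Fadu subline array, Detroit-labelled replicate 2, either Detroit parent array or any of the 4 OECM1 arrays; the separation of the values does not use that spread.

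KLK10, a kallikrein without firmly known substrates, stood at 10.60 and 9.66 on the Detroit-labelled arrays. Its Fadu values were 6.30, 7.23, 8.90 and 9.12, so the groups did not overlap, but the Fadu parent arrays came close. The log2 difference was 2.25 ± 0.42 (adjusted p = 0.193 in limma), which was not called. A second, dim probe set of KLK10 differed by 0.14. All 12 kallikrein-related genes tested had a mean difference above 0, with a median of 0.36 beside 0.03 over all genes, and 1 of the 12 was called. In replicate 1 alone 11 lay above 0 (median 0.30), and in replicate 2 alone 9 did (median 0.27). KLK11 stood at 5.51 and 5.46 against 4.40 to 4.83 in Fadu.

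TGM1, the transglutaminase of the cornified envelope, stood at 7.94 in replicate 1 and at 6.64 in replicate 2. The Fadu values were 5.29, 4.69, 5.38 and 5.32, and the Detroit parent stood at 5.41 and 5.27. Both Detroit-labelled arrays lay above the 6 others, replicate 1 by more. SCEL, the cornified envelope protein sciellin, stood at 4.29 and 5.13 against 3.24 to 3.38 in Fadu, below the dim limit on all Fadu arrays. In the Detroit parent SCEL was at 4.81 and 5.24. Log2 differences were 2.12 for TGM1 (adjusted p = 0.102) and 1.41 as measured for SCEL (adjusted p = 0.231), neither of them called in limma. With values below the dim limit set to it, that of replicate 1 among them, the SCEL difference was 0.31. These were the only separated genes of the 10 cornified envelope genes tested, whose median difference was 0.18 in the mean, 0.27 in replicate 1 and 0.19 in replicate 2. Over all genes, 0.367% were separated higher. In replicate 1 the 10 genes ran from -1.98 to 2.77 against the Fadu mean, with 8 above it. In replicate 2 they ran from -0.31 to 1.83, with 8 above it.

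**Figure D3:**
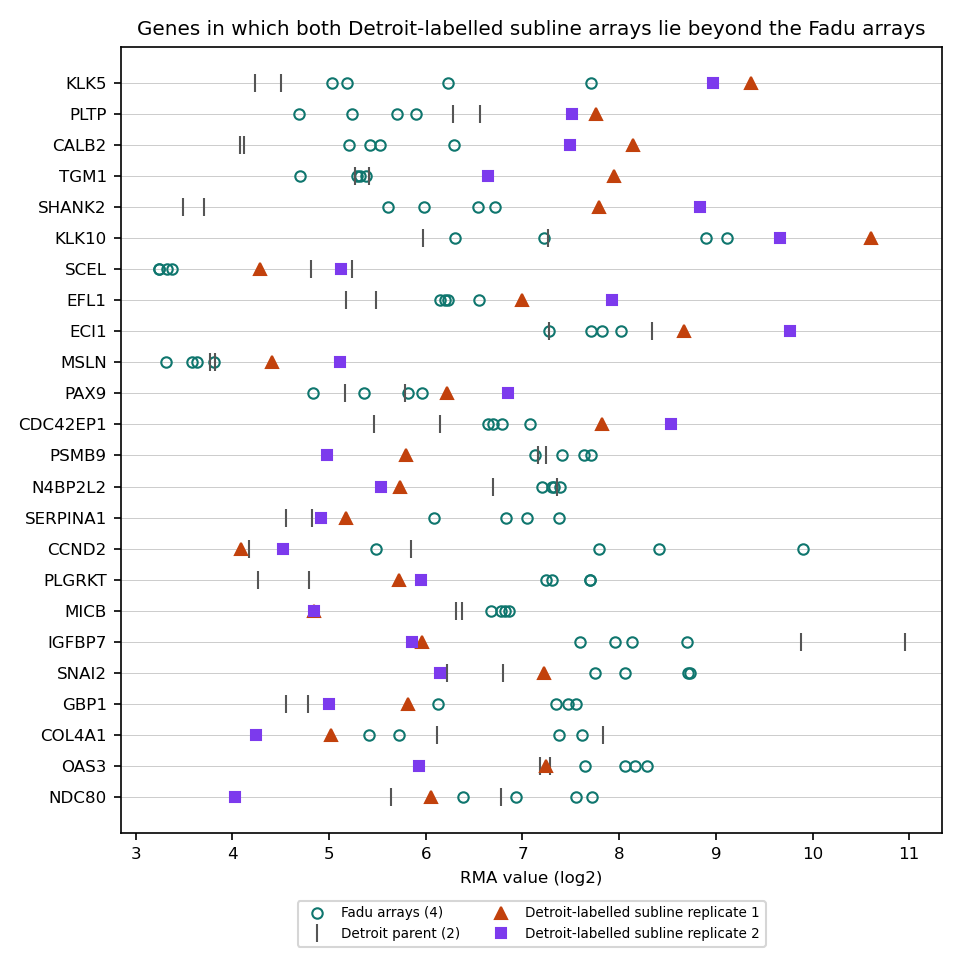
RMA values (log2, x axis) of the 12 higher and 12 lower separated genes with the smallest p (y axis). Open circles are the 4 Fadu arrays, grey ticks the 2 Detroit parent arrays, the triangle and square Detroit-labelled subline replicates 1 and 2. The triangle and square lie on one side of all circles in each row, by the choice of the genes, and the Detroit parent lies on either side.

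PLTP, the phospholipid transfer protein of lipoproteins, stood at 7.76 and 7.51 on the Detroit-labelled arrays and at 5.70, 4.69, 5.23 and 5.89 on the Fadu arrays. CALB2, the calcium-binding protein calretinin, stood at 8.14 and 7.49 against 5.20, 6.30, 5.43 and 5.53. SHANK2, a scaffold protein encoded in the 11q13 region that is often amplified in head and neck cancer, stood at 7.79 and 8.83 against 5.61, 6.55, 5.98 and 6.72. In all 3 the lower Detroit-labelled array lay at least 1 above the highest Fadu array. A second probe set of SHANK2 differed by 2.83 in the mean and 2 dim ones by 0.07 and 0.19. Log2 differences on the probe sets used were 2.25 (PLTP), 2.20 (CALB2) and 2.10 (SHANK2), with adjusted p of 0.0785, 0.0785 and 0.119 in limma. The Detroit parent was lowest in CALB2 (4.08 and 4.12) and in SHANK2 (3.70 and 3.49), and stood between the groups in PLTP (6.56 and 6.28). Other genes of the 11q13 list did not move with SHANK2. CCND1, which encodes cyclin D1, stood at 8.64 and 8.24 against 8.04 to 9.34 in Fadu, and CTTN, the actin regulator cortactin, at 8.58 and 9.29 against 8.71 to 9.28. The sign of the small CTTN difference turned when all its probe sets were averaged (-0.16 against 0.069). MSLN (mesothelin), PAX9 (a transcription factor of the oral and pharyngeal epithelium), EFL1, ECI1 and CDC42EP1 completed the 12 higher genes, with log2 differences from 1.04 to 1.51 as measured. MSLN was below the dim limit on all 4 Fadu arrays.

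CCND2, which encodes cyclin D2, stood at 4.09 and 4.52 on the Detroit-labelled arrays and at 8.41, 9.90, 7.79 and 5.48 on the Fadu arrays. The Detroit-labelled arrays lay at or near the dim limit, and Fadu parent replicate 2 was far below the other Fadu arrays. With the value below the dim limit set to it, CCND2 was at least 10.4-fold lower. The measured log2 difference was -3.59 ± 0.66, with an adjusted p of 0.193 in limma. CCND2 was lower in both arrays on its other 2 probe sets too, by -1.62 and -1.28 in the mean. The Detroit parent stood at 5.85 and 4.18.

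Antigen presentation genes were among the lower genes. PSMB9, an interferon-inducible subunit of the immunoproteasome, stood at 5.80 and 4.98 against 7.12, 7.63, 7.71 and 7.41 in Fadu. MICB, a stress ligand for the NKG2D receptor of lymphocytes, stood at 4.84 on both arrays against 6.68, 6.86, 6.78 and 6.82. In both genes the Fadu arrays were tightly grouped and the Detroit parent was near them, at 7.17 and 7.25 for PSMB9 and at 6.31 and 6.37 for MICB. The log2 differences were -2.08 (adjusted p = 0.0785) and -1.94 (adjusted p = 0.231) in limma. TAP1, the peptide transporter, stood at 7.45 and 6.18 against 7.72 to 7.96. Of the 14 genes of MHC class I presentation and the immunoproteasome, 14 had a mean difference below 0 (median -0.38). Over all genes, 2.11% were separated lower and 7.05% had an unadjusted limma p under 0.05. In this list 2 were separated (PSMB9 and TAP1), 3 had such a p and 0 were called. The arrays differed in this list: 8 of 14 lay below 0 in replicate 1 (median -0.011, 0 called), and 13 in replicate 2 (median -0.51, 3 called lower beside 2.68% of all genes).

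Interferon-stimulated genes, many of which encode antiviral proteins, were lower in 26 of 29 in the mean of both arrays. Replicate 1 was below the Fadu mean in 23 (median -0.62) and replicate 2 in 25 (median -0.99). The medians over all genes were 0.05 and -0.02. Of the 29, 5 were separated, 10 had an unadjusted p under 0.05 and 0 were called in limma in the mean of both arrays. Over all genes, 2.11% were separated lower and 7.05% had an unadjusted limma p under 0.05. OAS3, an antiviral oligoadenylate synthetase, stood at 7.24 and 5.93 against 7.65, 8.06, 8.29 and 8.17. GBP1, a guanylate-binding protein, stood at 5.82 and 4.996 against 7.35, 7.55, 7.47 and 6.13. Replicate 2 was the lower array in both genes. As a mean over the list, Fadu arrays ran from 6.65 to 8.07, and replicates 1 and 2 stood at 6.71 and 6.16, so that replicate 1 lay within the Fadu range. The Detroit parent was low as well, at list means of 6.17 and 6.14 and a median difference of -0.94. In it, 6 of the 29 were called lower in limma, beside 3.43% of all genes. GBP1 stood there at 4.78 and 4.56.

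IGFBP7, a secreted IGF-binding protein of the basement membrane, stood at 5.96 and 5.86 against 7.96, 8.13, 8.70 and 7.59. The Detroit parent was the highest group, at 10.95 and 9.88. COL4A1 and COL4A2, the main collagen IV chains of basement membranes, were also lower. COL4A1 stood at 5.02 and 4.24 against 7.61 and 7.38 in the Fadu subline and 5.72 and 5.41 in the Fadu parent. COL4A2 stood at 7.07 and 5.11 against 9.03, 9.01, 7.63 and 7.17. For both collagens the Fadu parent was nearer to the Detroit-labelled arrays than the Fadu subline was. SNAI2, the transcription factor Slug, stood at 7.22 and 6.14 against 8.73, 8.71, 8.06 and 7.75. SERPINA1, the protease inhibitor antitrypsin, stood at 5.17 and 4.91 against 6.83, 7.37, 7.05 and 6.08. PLGRKT, a plasminogen receptor, stood at 5.72 and 5.95 against 7.24 to 7.70. None of the 6 was called in the mean of both arrays, and their adjusted p in limma lay between 0.145 and 0.462. Log2 differences ran from -1.095 (SNAI2) to -2.13 (IGFBP7) in replicate 1 and from -1.54 (PLGRKT) to -3.10 (COL4A2) in replicate 2. Both arrays took part in the choice of these genes, so the values are a description. N4BP2L2 stood at 5.74 and 5.53 against 7.198 to 7.38 on the probe set used, but its probe sets disagreed in replicate 2, where 3 of the other 4 were above the Fadu mean, by 1.22 to 1.60.

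Sterol synthesis genes, which answer to SREBP2, were lower in 12 of 14 in the mean of both arrays, in 9 in replicate 1 (median -0.56) and in 13 in replicate 2 (median -0.97). DHCR7, the last enzyme of cholesterol synthesis, stood at 7.06 and 6.29 against 7.70, 7.90, 8.92 and 8.64. INSIG1, a sterol sensor partner, stood at 5.55 and 5.74 against 5.92, 6.73, 9.40 and 7.35. In both genes the Fadu parent was the higher Fadu group. The Detroit parent stood at 8.57 and 8.26 in DHCR7, within the Fadu range, and at 5.67 and 5.78 in INSIG1, near the Detroit-labelled arrays. Of the 14, 6 were separated, 4 had an unadjusted p under 0.05 and 0 were called in limma in the mean of both arrays. Over all genes, 2.11% were separated lower and 7.05% had an unadjusted limma p under 0.05. Metallothioneins, zinc-binding proteins with probes that can share signal, were lower in 7 of 8 (medians -0.66 and -0.89). MT1X stood at 10.75 and 9.99 against 11.20 to 11.56. The Detroit parent was low in this list as well, with a median of -0.85 over the 8 genes. Of these, 3 were called lower there in limma, beside 3.43% of all genes. Histone genes were lower in 7 of 8 (medians -1.05 and -0.93), though Fadu parent replicate 2 was low as well: H1-2, a linker histone, stood at 5.41 and 4.48 against 8.18, 7.22, 8.16 and 5.25. In the mean of both arrays, 6 metallothioneins and 4 histones had an unadjusted p under 0.05, beside 7.05% of all genes. Of these 2 lists, 0 genes were called in limma.

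Separated genes were unevenly spread over chromosomes. On chromosome 13, 9.15% of 142 genes were separated, beside 2.48% of all genes and 0.794% to 4.56% on the other autosomes. The 12 lower genes, in order along the chromosome, were HMGB1, HSPH1, N4BP2L2, RFC3, DNAJC15, LCP1, DLEU2, TEX30, POGLUT2, COL4A1, COL4A2 and TFDP1, and the higher gene was SCEL. RFC3, a subunit of the clamp loader of DNA replication, and TFDP1, a partner of E2F factors, differed mainly in replicate 2. So did HMGB1 (-0.70 and -1.91 in replicates 1 and 2), TEX30 (-0.48 and -1.80) and POGLUT2 (-0.65 and -1.88). COL4A2 was lower by more in replicate 2 (-1.14 and -3.10), and DNAJC15 by more in replicate 1 (-1.61 and -0.54). RFC3 differed by -0.89 in replicate 1 and was lower by at least 3.21 in replicate 2, where it was below the dim limit. LCP1, the actin-bundling protein plastin 2, differed by -1.61 and -1.21, and HSPH1, a heat shock protein, by -1.20 and -1.38. The median over all chromosome 13 genes was -0.21 in replicate 1 and -0.08 in replicate 2. Chromosome 6 followed with 4.56% of 461 genes, 21 of them lower and 0 higher, among them MICB, PSMB9 and TAP1 of the MHC region. No copy number was measured, and no test was made of these shares.

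Set against each Fadu group separately, the Detroit-labelled subline differed in 0 called genes from the Fadu parent (0.0%, limma) and in 1, KLK5, from the Fadu subline (0.0111%). Unadjusted p-values under 0.05 were found for 3.9% and 7.01% of genes. Without Detroit-labelled replicate 1 the counts of called genes were 246 and 376, and a difference between the Fadu groups was not tested.

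On its own, replicate 1 differed in 1 called gene (0.0111%), TGM1, with 500 genes at an unadjusted p under 0.05 (5.56%). The single array was assumed to vary like the duplicates of the other 5 groups. TGM1 was higher by 2.77 ± 0.31 on the log2 scale, or 6.83-fold, with an adjusted p of 0.0213 in limma. KLK5 followed at 3.33 ± 0.45 with an adjusted p of 0.0583. The TGM1 call was lost when only the arrays compared set the spread (adjusted p = 0.147), when either Fadu parent array was left out, when either OECM1 subline array was left out, or with the replicate number as a block (adjusted p = 0.0544).

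Some keratins set replicate 1 apart in level. KRT14, the basal keratin, stood at 11.52 in replicate 1 and 9.52 in replicate 2, against 9.48, 8.20, 9.08 and 8.66 in Fadu and 4.11 and 3.997 in the Detroit parent. KRT4, a keratin of mucosal epithelium, stood at 8.52 in replicate 1, at 5.45 in replicate 2 and between 4.54 and 6.65 in Fadu. KRT8, a keratin of simple epithelium, stood at 11.48 in replicate 1, at 8.79 in replicate 2 and between 9.41 and 10.01 in Fadu. Replicate 1 exceeded all Fadu arrays in all 3 keratins, whereas replicate 2 was below them in KRT8 and barely above them in KRT14. Differences of replicate 1 were 2.66, 3.28 and 1.80 with adjusted p of 0.31, 0.433 and 0.31 in limma, so they were not called. The median over 7 basal and stress keratins was 1.63 in replicate 1 and 0.21 in replicate 2. Over 5 simple epithelial keratins it was 0.45 and -0.76. KRT10 and KRT7 were below the Fadu mean in replicate 1, at differences of -0.23 and -0.55. A second, dim probe set of KRT4 differed by 0.27 in replicate 1.

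Of 325 genes at least 2-fold below the Fadu mean in replicate 1, 71 were so in replicate 2 too, 218 differed there by less than 2-fold and 36 were at least 2-fold above. CCND2 and IGFBP7 were among the 71. VEGFA, the vascular endothelial growth factor, stood at 4.87 in replicate 1 and at 9.56 in replicate 2, against 8.68, 8.31, 8.70 and 8.42 in Fadu. The difference of replicate 1 was -3.65 (adjusted p = 0.31) on that probe set and -0.61 to -1.25 on 3 other VEGFA probe sets. SAT1, an enzyme of polyamine breakdown, stood at 5.56 in replicate 1, 8.49 in replicate 2 and 6.87 to 8.49 in Fadu. SNAP23, a membrane fusion protein, stood at 4.18, 7.45 and 5.51 to 6.06. CD99, a cell surface glycoprotein, was lower in both, at 6.56 and 7.80 against 8.33 to 8.47. In all 4 genes replicate 1 was the lowest of the 6 arrays. At least 2-fold beyond the Fadu range, replicate 1 had 15 genes above (0.167%) and 90 below (1.0%).

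Replicate 2 alone differed in 436 called genes (4.85%), of which 195 were higher (2.17%) and 241 lower (2.68%). Rose and fell are said below of called genes. Beyond the Fadu range by at least 2-fold, it had 261 genes above (2.9%) and 361 below (4.01%). For the Detroit parent arrays, the same counts were 307 above and 447 below (3.41% and 4.97%) for replicate 1 and 290 above and 331 below (3.23% and 3.68%) for replicate 2. Detroit-labelled replicate 2 thus had fewer genes above the Fadu range than either Detroit parent array, and a number below it between theirs. With only the arrays compared in the fit the count of called genes was 735. It was 267 and 259 without Fadu subline replicate 1 or 2 and 273 without Fadu parent replicate 2.

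Cell division genes were lower in replicate 2 throughout. Of 31 genes of G2 and mitosis, 29 fell and 0 rose, with a median difference of -3.29 in replicate 2 beside -0.20 in replicate 1. Of 31 genes of S phase and replication, 21 fell and 0 rose, with medians of -1.96 and -0.01. CDC20, the activator of the anaphase-promoting complex, stood at 5.22 in replicate 2 and at 10.21 in replicate 1, against 10.27, 10.10, 9.47 and 9.98 in Fadu. RRM2, the small subunit of ribonucleotide reductase, stood at 4.21 and 9.20, against 9.85, 9.37, 9.30 and 9.31. CCNB1, which encodes cyclin B1, stood at 5.35 and 9.53, against 10.18, 10.05, 9.35 and 9.48. In each gene replicate 2 was far below the 5 other arrays and replicate 1 was among or just below the Fadu arrays. Relative to Fadu, replicate 2 was lower by 26.7-fold in CDC20 (adjusted p = 6.57e-05), at least 30.7-fold in RRM2, which was below the dim limit (adjusted p = 0.000454), and 21.3-fold in CCNB1 (adjusted p = 0.000331) in limma.

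The kinase AURKA, the cyclin CCNA2, the spindle proteins PRC1 and DLGAP5 and the thymidylate synthase TYMS fell by 4.24 to 4.38 on the log2 scale as measured, each called. Replicate 2 was below the dim limit in CCNA2, PRC1 and DLGAP5, which were lower by at least 3.50, 4.13 and 4.01. CENPA, a centromere histone, and CENPE, a kinetochore motor, were the 2 mitotic genes not called, at -1.05 and -0.74. As a mean over the 31 mitotic genes, replicate 2 stood at 4.83, the lowest of all 12 arrays, and the 11 others ran from 7.49 to 8.45. OECM1 parent replicate 1, with a higher ACTB 3' minus 5' difference (0.87) than replicate 2 (0.80), stood at 8.25. Whether RNA integrity bears on these levels was not tested. Across the alternative settings run, the count of fallen mitotic genes stayed between 27 and 29 and that of S phase genes between 8 and 27.

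**Figure D4:**
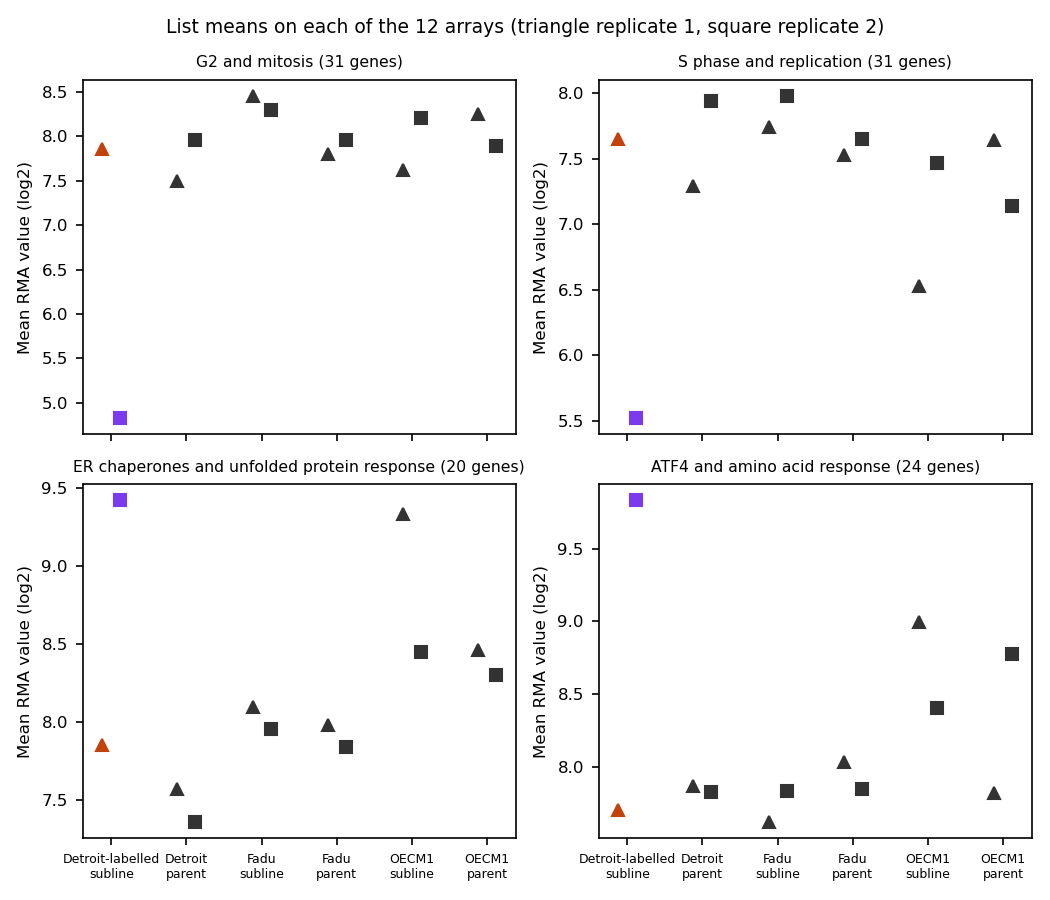
Mean RMA value (log2, y axis) over each of 4 gene lists on the 12 arrays, grouped by label (x axis), with triangles for replicate 1 and squares for replicate 2. Detroit-labelled replicate 2 is the lowest array in both cell cycle lists and the highest in the ER chaperone and ATF4 lists.

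Genes of the ER stress and amino acid responses were higher in replicate 2. In these pathways, unfolded protein in the endoplasmic reticulum activates ATF6 and XBP1, which induce chaperones, and phosphorylation of eIF2 alpha raises translation of ATF4, which induces amino acid synthesis and transport genes. Of 24 ATF4 and amino acid genes, 11 rose and 0 fell, with a median of 1.88 in replicate 2 beside -0.16 in replicate 1. Of 20 ER chaperone genes, 6 rose and 0 fell, with medians of 1.42 and -0.06. ASNS, the asparagine synthetase, stood at 11.60 in replicate 2 and 8.20 in replicate 1, against 7.30, 7.71, 8.54 and 8.13 in Fadu. CHAC1, a glutathione-degrading enzyme, stood at 7.99 and 5.21, against 4.91, 4.59, 5.27 and 4.73. SLC7A11, the cystine transporter, stood at 9.89 and 5.28, against 5.59, 6.47, 6.97 and 7.55. HSPA5, the chaperone BiP, stood at 12.42 and 10.38, against 10.88, 10.57, 10.18 and 10.39. Replicate 2 was above all Fadu arrays in each, and replicate 1 was within or near their range. Adjusted p-values for replicate 2 in limma were 0.0135 for ASNS, 0.00216 for CHAC1, 0.0123 for SLC7A11 and 0.0322 for HSPA5. As list means, the OECM1 subline came nearest, with replicate 1 at 9.34 for ER chaperones beside 9.42 in Detroit-labelled replicate 2. Across settings the counts of risen genes ran from 7 to 18 for the ATF4 list and from 3 to 11 for the ER list.

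Promoters of genes in the lists that moved together are shown, since each list has a known promoter element. The windows are the 250 bases before the start from the RefSeq promoter table (GRCh38.p14), written 5' to 3' on the gene's strand, with the element in capitals. HSPA5 (chr9:125241344-125241593, minus strand) has its ER stress response element, CCAAT and CCACG held 9 bases apart, 66 bases before the start. CHAC1 (chr15:40953221-40953470, plus strand) has TTGCATCA, an amino acid response core bound by ATF4, 209 bases before the start. CDC20 (chr1:43358731-43358980, plus strand) and CCNB1 (chr5:69166900-69167149, plus strand) have TTTGAA or TTTAAA, the core of the cell cycle homology region, first met 178 and 30 bases before the start.
HSPA5: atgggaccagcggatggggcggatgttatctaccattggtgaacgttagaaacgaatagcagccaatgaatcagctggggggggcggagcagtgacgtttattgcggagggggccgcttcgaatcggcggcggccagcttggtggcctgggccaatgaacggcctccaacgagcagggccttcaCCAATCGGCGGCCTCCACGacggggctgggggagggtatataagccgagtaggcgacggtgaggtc
CHAC1: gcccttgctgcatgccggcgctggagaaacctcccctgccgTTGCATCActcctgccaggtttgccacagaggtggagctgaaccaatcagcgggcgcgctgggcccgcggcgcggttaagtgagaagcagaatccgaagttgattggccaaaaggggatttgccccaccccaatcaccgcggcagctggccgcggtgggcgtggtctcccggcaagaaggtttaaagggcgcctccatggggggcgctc
CDC20: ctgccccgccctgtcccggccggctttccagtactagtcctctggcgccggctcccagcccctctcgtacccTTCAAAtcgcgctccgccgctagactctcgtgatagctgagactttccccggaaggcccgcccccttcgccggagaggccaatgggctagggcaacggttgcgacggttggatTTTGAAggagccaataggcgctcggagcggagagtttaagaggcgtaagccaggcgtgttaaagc
CCNB1: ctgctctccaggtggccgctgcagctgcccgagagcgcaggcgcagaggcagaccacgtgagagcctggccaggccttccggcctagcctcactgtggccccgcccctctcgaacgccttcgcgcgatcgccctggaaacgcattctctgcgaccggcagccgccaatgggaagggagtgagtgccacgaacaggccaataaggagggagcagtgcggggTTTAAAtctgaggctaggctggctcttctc

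The elements were searched on both strands of windows of 300 bases, which add the 50 bases after the start. The ER stress response element was found in 7 of 19 ER chaperone windows (36.8%), in 0.137% of 7315 windows of tested genes and in 0.0806% of all 27305 windows. The 7 genes were XBP1, HSPA5, ERO1B, HSP90B1, CRELD2, CALR and CANX, and 4 of them rose in replicate 2. TTGCATCA was found in 3 of 21 ATF4 list windows (14.3%), those of CHAC1, CARS1 and AARS1, beside 0.588% and 0.923%. TTTGAA or TTTAAA was found in 22 of 25 mitotic windows (88.0%), beside 15.3% and 24.3%. CCAAT, which also forms part of the ER stress response element, was found in 94.7%, 66.7% and 88.0% of the windows of the 3 lists in that order, beside 36.8% and 35.7%. A match describes the letters in the window, and binding was not measured.

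The genes with the highest differences in replicate 2 included stress and xenobiotic genes. HMOX1, the heme oxygenase, stood at 10.69 in replicate 2, at 5.12 in replicate 1 and at 5.63, 5.96, 4.94 and 5.21 in Fadu, a 38.3-fold difference (adjusted p = 5.38e-05 in limma). CYP1A1, a target of the aryl hydrocarbon receptor, stood at 9.21, at 4.32 and between 4.26 and 4.77, and ARG2, the mitochondrial arginase, at 8.85, at 3.75 and between 3.82 and 5.22. A second, dim ARG2 probe set differed from Fadu by only 0.45 in replicate 2 and by 0.07 in replicate 1. S100P, a calcium-binding protein, stood at 9.07, at 4.60 and between 3.86 and 5.06. In these 4 genes, on the probe sets used, replicate 2 exceeded every Fadu array by more than 8-fold. PCK2, CYP26A1, LAMP3 and NIBAN1 were higher by 4.07 to 4.79 on the log2 scale, each called. Of 18 NRF2 antioxidant genes 4 were called higher and 0 lower, with 12 above the Fadu mean and 6 below it. Of 27 hypoxia and glycolysis genes 4 were called higher and 0 lower, with 16 above and 11 below. Over all genes 2.17% were called higher and 2.68% lower. Of 29 interferon-stimulated genes 5 fell and 0 rose, the lowest being IFI44, at 4.89 in replicate 2, 7.67 in replicate 1 and 7.83 to 8.60 in Fadu. CD44, the hyaluronan receptor, stood at 6.19 in replicate 2, 9.61 in replicate 1 and 8.47 to 10.42 in Fadu.

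**Figure D5:**
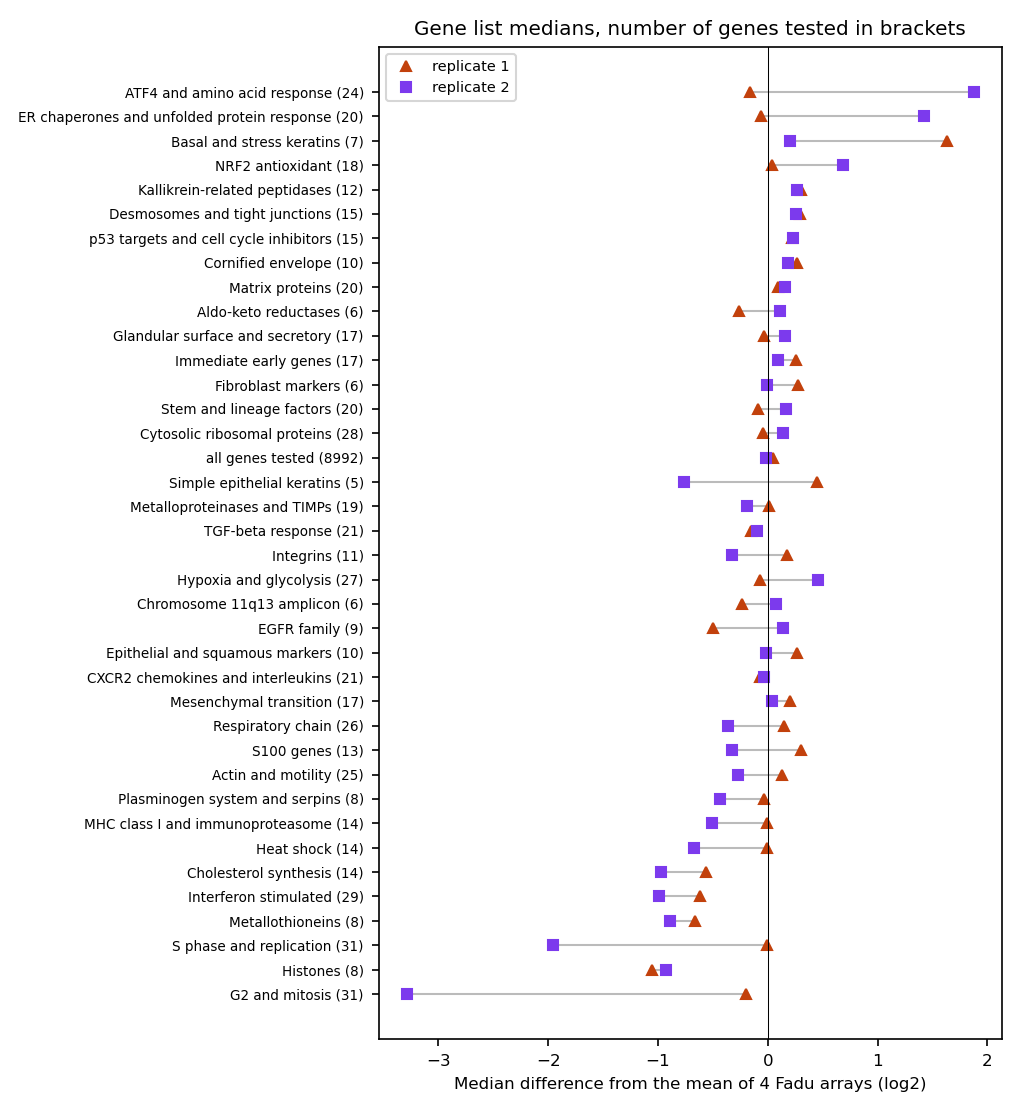
Median log2 difference from the mean of the 4 Fadu arrays (x axis) over each gene list of at least 5 tested genes (y axis), for Detroit-labelled replicate 1 (triangles) and replicate 2 (squares). Interferon, sterol, metallothionein and histone lists lie below 0 in both arrays, while cell cycle, ER chaperone and ATF4 lists lie farther from 0 in replicate 2 than in replicate 1.

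The direct comparison of the duplicates, 1 array on each side, called 258 genes (2.87%), 146 higher in replicate 2 (1.62%) and 112 lower (1.25%). GDF15, a stress-induced cytokine, stood at 10.12 in replicate 2 and 3.79 in replicate 1, with Fadu arrays at 4.79, 5.78, 7.52 and 7.52 between them. Replicate 1 was below the dim limit, so the log2 difference was at least 5.60 (6.33 ± 1.24 as measured) on the probe set used. A second, dim GDF15 probe set did not show it, differing from Fadu by 0.33 in replicate 1 and -0.19 in replicate 2. VEGFA was higher in replicate 2 by 4.68 and SLC7A11 by 4.61 on the probe sets used. In both genes each Fadu array lay between the 2 arrays. The other VEGFA probe sets differed less, by -0.61 to -1.25 from Fadu in replicate 1 and by 0.70 to 0.90 in replicate 2. KRT13, a keratin of mucosal epithelium, was at 8.66 in replicate 1 and 4.03 in replicate 2, against 5.90 to 7.98 in Fadu, and was not called. All 31 mitotic and all 31 S phase genes were lower in replicate 2 than in replicate 1, and 24 and 8 of them were called. With the ACTB 3' minus 5' difference as a covariate 89 genes were called, and the count of mitotic genes called lower was 16. Without Fadu subline replicate 1 or 2, 169 and 171 genes were called.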

How the data were processed

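The 12 arrays were deposited as log2 values for 22283 probe sets, which the authors made with RMA and Partek 7, as the submitters' processing notes list them, with 0 missing values. RMA compresses low values, so changes of dim genes are understated. The genome build and annotation version are not named in the sources used here. Names came from the array's platform table and RefSeq (19065 with 1 symbol, 1043 with several, 2107 with none, 68 controls).

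From these values, each of 11963 genes was represented by the probe set of highest mean, and the 8992 genes with at least 2 arrays above log2 4.52 were tested with limma 3.58.1 in R 4.3.3. The model held a mean per labelled group over all 12 arrays, empirical Bayes moderation with an intensity trend, and Benjamini-Hochberg adjustment. For single-array comparisons, each Detroit-labelled subline array had a mean of its own, and the spread came from the other 5 groups. The fits were tested on simulated data.

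Of 787 entries in 39 gene lists, 686 were on the array. Named genes were the separated genes of smallest p (12 in each direction) and 8 in each direction of each single-array comparison. Those 8 were the called genes of largest difference, filled by smallest p where fewer than 8 were called. Added to them were 4 members per list and 12 line genes, and others were chosen after their values were seen. Arrays, lists and members were chosen with earlier results of these data known. There were 0 unused columns. The number of arrays limits the precision.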

Additional observations from a re-analysis of the deposited data

Results flagged for a closer look

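Among 198 named genes, 10 had 1 of the 4 Fadu arrays far from the other 3 by Dixon's ratio of gap to range, and chance gives about 1 such gene in 20. Fadu parent replicate 2 stood apart in CYCS at 9.93 (others 10.22 to 10.25), in GBP1 at 6.13 (others 7.35 to 7.55), in HYOU1 at 9.65 (others 8.75 to 8.76) and in TIMP3 at 5.64 (others 5.16 to 5.23). Fadu parent replicate 1 stood apart in LAMP3 at 7.03 (others 4.36 to 4.54), in MSN at 7.32 (others 7.68 to 7.75) and in PI3 at 7.80 (others 4.999 to 5.06). Fadu subline replicate 1 stood apart in RRM2 at 9.85 (others 9.30 to 9.37) and in TFAP2C at 6.47 (others 5.89 to 5.94), and Fadu subline replicate 2 in TGM1 at 4.69 (others 5.29 to 5.38). The 18S ribosomal RNA probe set stood at 12.62 on Fadu subline replicate 1 (others 4.87 to 5.73).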

How the results depend on the processing

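For the comparison with 4 Fadu arrays, the count of called genes was 1 in the values reported, 0 with only the arrays compared or with array weights, 2 with the mean of all probe sets (KLK5 and SERPINA1), and 3 with quantile normalization (CALB2, KLK5, PLTP) or the ACTB difference as a covariate (KLK5, PLTP, TGM1). Leaving out 1 array gave 0 to 433, with 433 without Detroit-labelled replicate 1 and 8 without Fadu parent replicate 2. Against the Fadu parent the count was 1 (GPX2) with a stricter filter and 0 to 246 with 1 array left out. Against the Fadu subline it was 0 with only the arrays compared, 3 with the mean of probe sets, 4 with the ACTB covariate and 0 to 376 with 1 array left out. For replicate 1 alone it was 2 with a stricter filter or arrays centred on their medians and 0 to 2 with 1 array left out. For replicate 2 alone it was 735 with only the arrays compared and 259 to 555 with 1 array left out. Between the duplicates it was 505 with only the arrays compared, 89 with the ACTB covariate and 169 to 347 with 1 array left out. For the Detroit parent it was 971 with array weights and 163 to 835 with 1 array left out. Separated genes numbered 36 at a limit of 2. The signs of CTTN and COL1A1 turned with the mean of all probe sets (0.069 and 0.15). Sign changes were counted only among genes named for the comparison of both arrays with 4 Fadu arrays. Others whose Detroit-labelled arrays differed in sign, such as GDF15 and VEGFA, were left out of the count. Leaving out 1 array turned the sign of the mean difference in 20 of the genes so named, which were not called in that comparison. Their ranges, with both ends from leaving out replicate 1 or 2 of the Detroit-labelled subline, were XBP1 -0.084 to 2.63, KRT10 -0.23 to 1.07, KRT18 -0.078 to 0.93, KRT8 -0.88 to 1.80, KRT19 -0.76 to 0.45, HMOX1 -0.31 to 5.26, AKR1C2 -0.45 to 2.98, AKR1C1 -0.64 to 2.85, DSG3 -0.25 to 2.45, RPL37 -0.0031 to 0.74, CTTN -0.51 to 0.20, CCND1 -0.35 to 0.051, CD44 -3.12 to 0.30, THY1 -0.059 to 0.54, COL1A1 -0.73 to 0.30, PDGFRA -0.059 to 0.24, TEK -0.10 to 0.036, CD14 -0.38 to 0.22, CD3E -0.13 to 0.034 and CDH1 -0.45 to 1.66.

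Replicate numbers were only shared between groups: the differences of replicate 2 minus replicate 1 correlated across genes at 0.31 between the Detroit-labelled and Fadu sublines and at -0.40 between the Detroit-labelled subline and the Fadu parent. With the replicate number as a block the counts were 1 for both arrays, 0 against the Fadu parent, 1 against the Fadu subline, 0 for replicate 1 (TGM1 was lost), 378 for replicate 2 and 464 for the Detroit parent; the cause of these changes was not tested.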

Other observations

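Of 19 metalloproteinase and TIMP genes, 8 plasminogen and serpin genes and 11 integrins, 0 were called in limma in the mean of both arrays, beside 0.0111% of all genes. An unadjusted p under 0.05 was reached by 2, 1 and 1 of them, beside 7.05% of all genes. In replicate 2 alone the 19 metalloproteinase and TIMP genes ran from -2.14 to 1.63 against the Fadu mean (median -0.19), with 7 above it. MMP1, a collagenase, stood at 4.545 and 3.82 on the Detroit-labelled arrays and at 4.08, 5.30, 7.78 and 6.66 on the Fadu arrays, so that the groups overlapped and the Fadu parent was highest. MMP13, another collagenase, stood at 3.89 and 4.02 on the Detroit-labelled arrays, at 3.88 and 4.18 in the Fadu subline and at 5.69 and 6.99 in the Fadu parent, so that both sublines lay below the dim limit and the Fadu parent above it. GPX2, a glutathione peroxidase, stood at 6.02 and 6.004 on the Detroit-labelled arrays, between the Fadu subline at 5.59 and 5.29 and the Fadu parent at 8.04 and 8.86. SERPINE2, an inhibitor of urokinase and thrombin, stood at 4.47 and 5.12 against 5.20 to 7.12 in Fadu, and ITGB2, an integrin chain of leukocytes, at 4.08 and 3.87 against 4.25 to 5.97; both were separated. CXCL1, a ligand of CXCR2, stood at 5.51 and 4.87 against 5.595, 6.49, 7.04 and 8.18.

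Death and growth signalling genes included FAS, a death receptor, at 5.08 and 5.52 against 6.13 to 7.23 in Fadu, and PLK2, a p53 target kinase, at 5.31 and 5.27 against 6.13 to 7.38. CCN1, a matrix protein induced by YAP and TGF-beta, stood at 8.11 and 6.49 against 8.29 to 10.24. In all 3, both Detroit-labelled arrays lay below the Fadu range and 0 were called in limma. Each of the 3 had an unadjusted limma p under 0.05, but they were named for small p-values within their lists. Over all genes, 2.11% were separated lower and 7.05% had such a p. Cytosolic ribosomal protein genes were near Fadu levels, with medians of -0.04 and 0.14 over 28 genes in replicates 1 and 2.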
